A study of Homo sapiens and Mus musculus with 24 samples.

Results

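Hemogen and BRG1 were followed at the genes that encode them, Hemgn and Smarca4, in mouse fetal liver. All peaks were taken that overlap the Hemgn window (chr4:46380000-46420000) or the Smarca4 window (chr9:21605000-21715000), in mm10 positions counted from 1. They came to 246 of 564622 peaks over 12 lists, with 177 at Hemgn and 69 at Smarca4. The windows were set by position, and no threshold on peak values was used to choose the members. The windows were, however, chosen with earlier results of these data known.

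The fetal liver samples came from embryos at day 14.5 of gestation. They comprise 2 libraries each of HA-tagged hemogen, of acetylated lysine 27 of histone H3 (H3K27ac) and of BRG1 from livers labelled wild type (WT), 2 libraries of BRG1 from hemogen knockout (KO) livers, and 4 input libraries. Each group of immunoprecipitates also has a group list, the authors' peaks for the group as a whole, so a group list is not an independent replicate. The labels do not say how the HA tag was introduced, and no HA precipitate of livers without the tag was analysed here. They do not say which piece of Hemgn the knockout lacks, and they do not say whether the libraries came from separate animals, so the spread between libraries may be technical. The 12 samples of K562 cells, a human erythroleukaemia line, were not analysed here.

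Hemogen is a nuclear protein made mainly in blood-forming cells, where its gene is a known target of the erythroid transcription factor GATA1. BRG1 is the ATPase of the BAF (SWI/SNF) complexes, which use ATP to move or evict nucleosomes and so open promoters and enhancers, and its bromodomain binds acetylated histones. H3K27ac is laid down at active promoters and enhancers. At this stage the fetal liver is the main site of red cell formation, and it also holds hepatocytes, macrophages and other cells. A peak in whole liver does not say in which cells, or in what share of them, a protein was bound. Markers of cell types were not analysed here, since a mouse annotation was not used. For the same reason, no peak was assigned to a promoter, exon or intron.

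The libraries differed in depth in a way that touches every comparison of WT with KO. The 6 WT library lists held 21167 to 69883 peaks, and the KO BRG1 lists 3209 and 5602. The depth of each immunoprecipitate was worked out from the fold and p-value of its peaks and expressed as a multiple of that of WT BRG1 library 1. It was 0.721 to 1.04 in the 6 WT libraries, and 0.404 and 0.341 in the KO libraries. This estimate rests on the lowest background of each list. The median background at called peaks was 5.34 and 4.44 fragments in the KO, against 4.99 and 5.49 in WT BRG1. The median summit height was 30 and 25 fragments in the KO, against 24 and 27. These medians cover called peaks only, and they do not show the lower depth. With shorter lists and a lower estimated depth in the KO, the absence of a KO peak does not show that BRG1 was absent.

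At Hemgn, all 3 WT marks lay together in a dense block. Joining the regions of the 3 marks that were separated by no more than 1 kb gave 1 stretch of 13.169 kb, chr4:46400463-46413631. A region here is a merge of the peaks of both libraries of a group that holds at least 1 peak of each. The stretch held 7 of the 9 hemogen regions, all 9 WT BRG1 regions and 10 of the 16 H3K27ac regions of the window. The other 6 stretches of the window were 0.484 to 2.27 kb long and held no BRG1 region. The map of peaks at Hemgn shows the block, with the strongest BRG1 summit as its zero point.

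**Figure D1:**
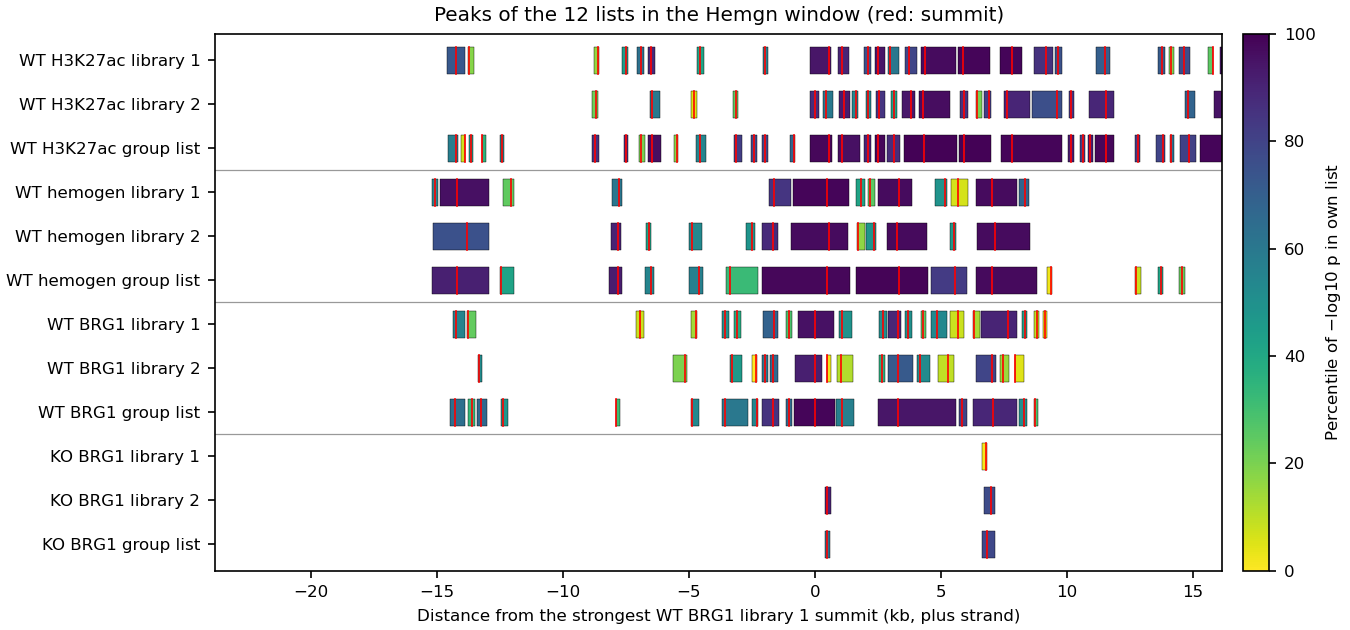
Peaks of the 12 lists across the Hemgn window, by distance in kb from the summit of the strongest WT BRG1 library 1 peak; bars are peaks, red ticks are summits, and colour is the percentile of −log10 p within the peak's own list. The WT lists form a block around and to the right of the zero point, while the KO BRG1 lists hold 1, 2 and 2 peaks.

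So many regions in 40 kb are uncommon. Of 65713 tiles of 40 kb over the genome, 37 (0.0563%) held 9 or more WT BRG1 regions, 92 (0.14%) held 9 or more hemogen regions, and 178 (0.271%) held 16 or more H3K27ac regions. Most tiles held no region of a given mark. Any WT BRG1 region was held by 6959 tiles (10.6%), any hemogen region by 11926 (18.1%) and any H3K27ac region by 8090 (12.3%). These shares are descriptions, since tile edges do not follow genes and the window was drawn around a known locus. Recovered local background at the BRG1 peaks of the window had a median of 5.68 fragments in library 1, against 4.99 over that library's whole list. In library 2 the median was 5.49 in the window and 5.49 in the list. In hemogen library 1 it was 4.90 in the window against 3.38, and in hemogen library 2 it was 5.00 against 4.95. The library 1 lists thus had somewhat higher background in the window than elsewhere, and its part in the number of peaks was not tested.

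Hemogen, the product of the gene, gave 13 and 12 peaks in its libraries and 14 in its group list. These peaks covered 28.3% and 28.0% of the window in the libraries. Of them, 11 and 9 fell into the 9 regions common to both libraries. The authors' fold enrichment over local background ran from 2.51 through a median of 4.38 to 8.47 in library 1, and from 3.48 through 4.15 to 7.22 in library 2.

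The 3 strongest hemogen regions all lay within the dense block. The first, chr4:46402881-46405189, had a fold of 8.47 in library 1 and 7.22 in library 2, with a −log10 p of 32.1 and 23.1. Its strength, the mean percentile of −log10 p in the 2 library lists, was 97.7. The second, chr4:46406314-46408277, had folds of 6.64 and 7.08 and a strength of 97.3. The third, chr4:46410210-46412364, had folds of 6.5 and 6.05 and a strength of 97.0. All 3 thus ranked in the top decile of hemogen regions, and the libraries gave each of them nearly the same rank. At their summits the recovered pile-up was 49, 49 and 48 fragments in library 1, and 54, 56 and 64 in library 2, where the median peak of the list had 17 and 25.

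The other hemogen regions were weaker. A region at chr4:46401724-46402870, directly before the strongest, had a strength of 86.4. Weak regions at chr4:46405433-46405814, chr4:46405867-46406230 and chr4:46409187-46409901 had strengths of 29.4, 36.4 and 26.3, and filled the gaps between the strong ones. Outside the block, chr4:46388617-46390886 had a strength of 85.6 but differed between libraries, with a fold of 8.20 in library 1 and 3.92 in library 2. The region chr4:46395743-46396174 also differed, with folds of 3.72 and 6.19.

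These 2 outlying hemogen regions carried no BRG1 or H3K27ac region. The first did hold BRG1 peaks of single lists. Library 1 had a BRG1 peak at chr4:46389440-46389944 with a fold of 4.25 and another at chr4:46390015-46390355 with a fold of 3.99. Library 2 had its own at chr4:46390428-46390623 with a fold of 4.41. Since these peaks do not overlap each other, the rule counted no BRG1 region there, although each library called BRG1 under the same hemogen peak. That first region also met H3K27ac peaks of library 1, such as chr4:46389209-46389932 with a fold of 4.36, and of the H3K27ac group list. The second outlying region met a BRG1 peak of the group list only, chr4:46395907-46396064, and no H3K27ac peak of any list.

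BRG1 in WT liver gave 21 and 16 peaks at Hemgn and 17 in its group list, covering 23.7% and 19.5% of the window in the libraries. In each library 13 peaks fell into the 9 common regions. Folds ran from 2.56 through a median of 3.67 to 6.90 in library 1, and from 2.54 through 4.0 to 5.89 in library 2. Strength was uneven over the 9 regions, with a median of 44.3 and a range of 30.2 to 93.5.

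Of the 9 BRG1 regions, 3 stood above the others. The strongest was chr4:46403030-46404574, with folds of 6.90 and 5.89, a −log10 p of 20.8 and 15.2, and a strength of 93.5. Its summits in the 2 libraries lay at 46403825 and 46403820, within a few bases of each other. The next, chr4:46410087-46412234, had folds of 5.70 and 4.41 and a strength of 84.8, but its strongest summits lay at 46411504 in library 1 and 46410864 in library 2. The third, chr4:46406704-46407700, had folds of 5.53 and 4.72, a strength of 80.8, and summits at 46407126 and 46407115. Each of the 3 overlapped 1 of the 3 strongest hemogen regions.

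The remaining BRG1 regions were moderate or weak. A region at chr4:46401724-46402374 had a strength of 67.4. The other 5 ranged from 30.2 to 44.3 and lay at chr4:46400463-46400913, chr4:46404684-46405345, chr4:46406365-46406682, chr4:46407857-46408392 and chr4:46408419-46409758. In the group list, 1 peak of 3126 bp with a fold of 5.81, chr4:46406306-46409431, overlapped 4 of the 9 regions.

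H3K27ac gave the most peaks of the 3 WT marks at Hemgn, 25 and 22 in its libraries and 32 in its group list. Its lists were also the longest. The window held 0.0358% and 0.0483% of its library lists, against 0.0798% and 0.0756% for BRG1 and 0.0245% and 0.0280% for hemogen. The H3K27ac peaks covered 29.1% and 25.1% of the window in the libraries, about as much as the fewer and wider hemogen peaks. The strongest region, chr4:46407944-46409408, had folds of 5.32 and 6.33 and a strength of 96.9. The region chr4:46419645-46420381 had folds of 5.52 and 6.0 and a strength of 94.3, and crosses the end of the window. The region chr4:46411187-46412355 had folds of 6.49 and 4.98 and a strength of 94.2. Over the 16 regions the strength had a median of 83.6 and ran from 19.1 to 96.9.

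By mean percentile, the strongest acetylated region did not coincide with the strongest hemogen or BRG1 summit. Its summits, at 46408206 and 46408109, lay at the right end of the second hemogen region, away from the hemogen summits at 46407175 and 46407079. The only BRG1 regions it overlapped were 2 of the weak ones, with strengths of 38.8 and 31.4. In H3K27ac library 1 alone, the strongest peaks were instead chr4:46409482-46410756 and chr4:46411187-46412041, each at percentile 98.7. The H3K27ac group list had its strongest peak at chr4:46409542-46410806, at percentile 99.6. All of these peaks overlapped the third hemogen region and the second strongest BRG1 region. The last 4 H3K27ac regions of the window, from 46412451 onwards, overlapped no hemogen region and no BRG1 region. The first of them, at the right end of the block, met BRG1 peaks of WT library 1 and of the BRG1 group list. That region and the one at chr4:46418285-46418900 met hemogen peaks of the group list. A further 14 H3K27ac regions lay within 20 kb beyond the window's edges, against 3 hemogen and 2 BRG1 regions.

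Most BRG1 regions at Hemgn were shared with hemogen and with H3K27ac. Of the 9 BRG1 regions, 8 overlapped a hemogen region, where 96.6% of all 13213 WT BRG1 regions did. Of the same 9, 7 overlapped an H3K27ac region, where 63.9% did overall. The single BRG1 region without a hemogen region, chr4:46400463-46400913, met a hemogen peak of the group list only. From the side of hemogen, 5 of 9 regions overlapped a BRG1 region and 6 overlapped an H3K27ac region, where 41.6% and 39.8% of all hemogen regions did. From the side of acetylation, 9 of 16 regions overlapped hemogen and 8 overlapped BRG1, against 49.0% and 37.2% overall. With 9 to 16 regions, which also lie side by side, none of these counts sets the locus apart from its background.

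Over the whole Hemgn window, many BRG1 summits lay apart from those of hemogen. Over the 21 BRG1 peaks of library 1, the median distance to the nearest hemogen summit of library 1 was 527 bp, and 13 of the 21 BRG1 summits lay inside a hemogen peak. Over the 16 peaks of library 2 the median was 312.5 bp, and 11 of 16 lay inside one. Of the BRG1 summits, 15 of 21 and 7 of 16 lay inside an H3K27ac peak of the library with the same number. In the strongest BRG1 region, the BRG1 summits lay to the left of the hemogen summits of the region it overlaps, at 46404300 and 46404367. In the second hemogen region, by contrast, the hemogen summits lay next to the BRG1 summits at 46407126 and 46407115.

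**Figure D2:**
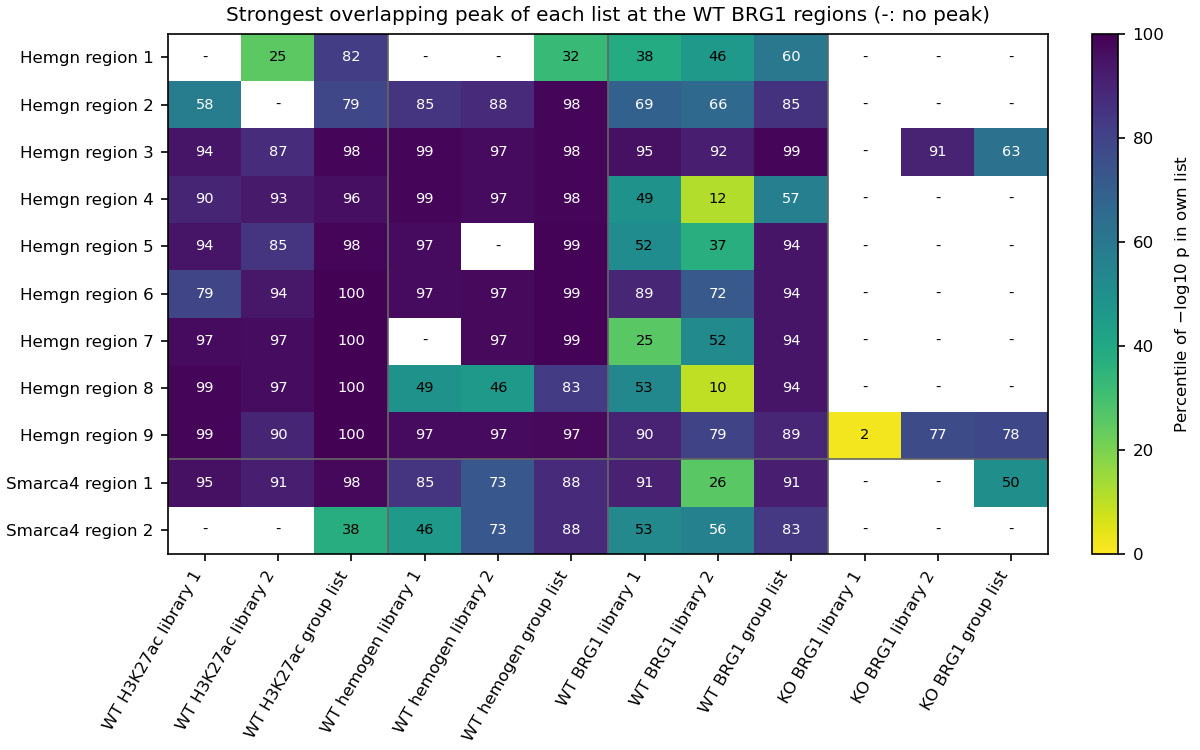
The 9 Hemgn and 2 Smarca4 WT BRG1 regions (rows, in genome order) against the 12 lists (columns); numbers and colour give the percentile, within its own list, of the strongest peak overlapping the region, and a dash means no peak. Every Hemgn region met a WT peak of each kind in at least 1 list, whereas only regions 3 and 9 met a KO BRG1 peak.

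In the hemogen KO, few BRG1 peaks were called at Hemgn. WT BRG1 library 1 had 21 peaks in the window and library 2 had 16, while the KO libraries had 1 and 2. The groups did not overlap. The KO lists were shorter over the whole genome, with 3205 and 5592 kept peaks against 26329 and 21165 in WT. The window held 0.0798% and 0.0756% of the peaks of the WT lists, and 0.0312% and 0.0358% of those of the KO lists. How often other windows of 40 kb separate the groups in this way was not computed. The means were 18.5 ± 3.54 (SD, n = 2) in WT and 1.5 ± 0.707 (SD, n = 2) in the KO, a difference of 17.0 peaks per library. The exact permutation test, two-sided, gave p = 0.33. With 2 libraries against 2, 0.33 is the smallest p the test can give, so the design cannot pass a threshold of 0.05.

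The difference moved with the length of the lists. At a −log10 q of at least 5, WT had 10 and 7 peaks and the KO 0 and 2, a difference of 7.5. When each library list was trimmed to its 3205 strongest peaks, the number in the shortest list, WT had 3 and 1 peaks in the window and the KO had 1 and 2, a difference of 0.5 (exact two-sided permutation p = 1.0). Trimming removes any general difference in peak number by construction, whatever its cause. It kept KO library 1 whole but only the strongest of the 26329 and 21165 WT peaks, so the p-value cut-offs were unlike. Estimated depth in the KO was 0.404 and 0.341 of that in WT BRG1 library 1. Genotype, depth and the number of peaks cannot be told apart in 2 libraries a group. A stretch of Hemgn removed in the KO would also give no peak there, and this cannot be told apart from lost binding.

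**Figure D3:**
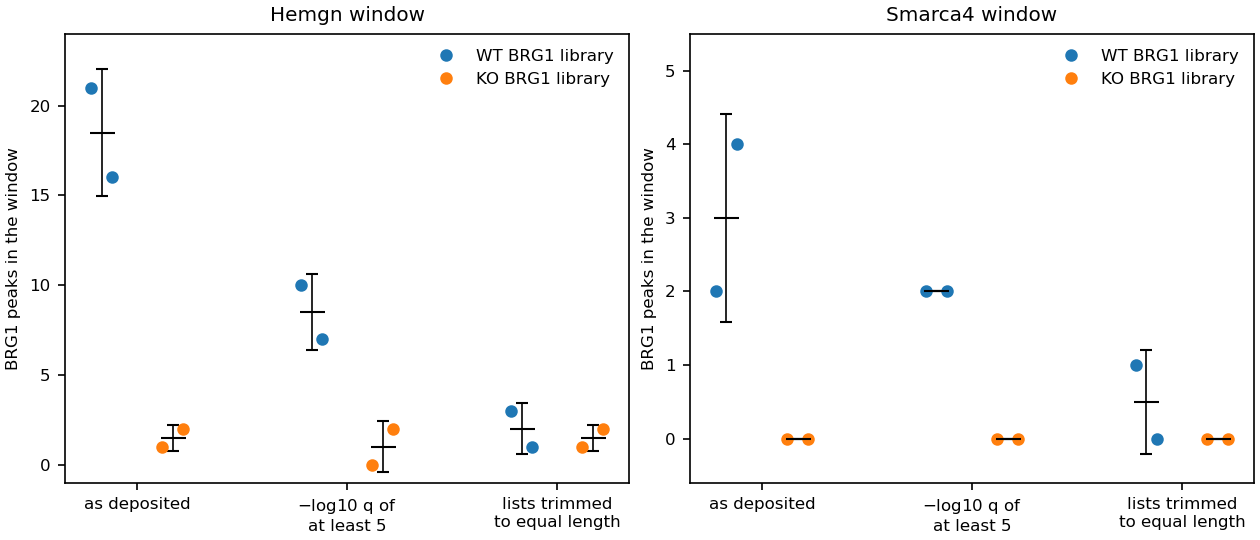
BRG1 peaks per library in the Hemgn window (left) and the Smarca4 window (right) as deposited, at a −log10 q of at least 5, and after trimming each library list to its 3205 strongest peaks; points are libraries, and bars the mean ± SD (n = 2). The WT counts of 21 and 16 at Hemgn lie above the KO counts of 1 and 2. The counts are 3 and 1 against 1 and 2 when the lists have equal length, which removes any general difference in peak number by construction.

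Of the 9 WT BRG1 regions at Hemgn, 2 (22.2%) were called in the KO, meaning that at least 1 of the 3 KO lists had an overlapping peak. Over all WT BRG1 regions 55.3% were called. Over the genome this share moved with strength in WT and ran from 25.9% in the weakest decile to 91.6% in the strongest. The Hemgn regions include 5 in deciles 2 and 3, where 32.9% and 37.4% of all regions were called, and none of these 5 was called. Among the 4 stronger regions, the 2 called ones lay in deciles 8 and 10, with genome shares of 69.8% and 91.6%. The 2 uncalled ones lay in deciles 6 and 8, with shares of 54.2% and 69.8%. Of the 4 regions left at a −log10 q of at least 5, 2 (50.0%) were called.

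**Figure D4:**
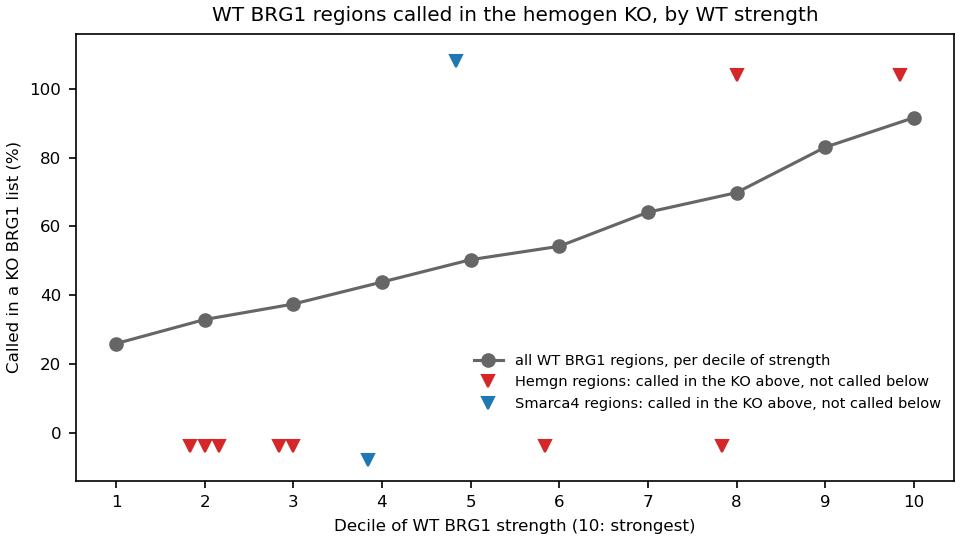
Percent of all WT BRG1 regions called in a KO BRG1 list by decile of WT strength (grey line), with the Hemgn (red) and Smarca4 (blue) regions set above the axis range if called in the KO and below it if not, shifted sideways where they share a decile. The grey line runs from 25.9% to 91.6%, and the 2 called Hemgn regions lie in deciles 8 and 10, and the 7 uncalled ones in deciles 2, 3, 6 and 8.

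The called regions were the strongest and the second strongest of the locus. At chr4:46410087-46412234 both KO libraries had a peak. KO library 1 called chr4:46410472-46410664 with a fold of 2.88 and a −log10 p of 4.70, among the weakest of its list at percentile 1.61. KO library 2 called chr4:46410514-46410984 with a fold of 5.51 and a −log10 p of 9.87, at percentile 77.0. At chr4:46403030-46404574 library 2 alone called a peak, chr4:46404207-46404451, with a fold of 5.65, a −log10 p of 11.8 and a percentile of 90.5. The KO group list held both, with a fold of 3.93 at chr4:46410438-46410961 and of 3.67 at chr4:46404209-46404404. The call at the strongest WT region thus rests on KO library 2 and on the group list.

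In the strongest region, the KO peak lay away from the strongest WT BRG1 summits. The KO library 2 peak there was 245 bp wide, where the median of its list was 280.5 bp. The WT region spans 1545 bp, but as a merge of peaks of 2 libraries it is not a like measure. The KO summit lay 482 and 487 bp from the strongest WT BRG1 summits of libraries 1 and 2. It lay 7 and 60 bp from the strongest summits of the overlapping hemogen region. A minor BRG1 peak of WT library 2 at chr4:46404294-46404478, with a fold of 2.59 and a percentile of 2.75, had its summit 11 bp away. In the second called region, the KO library 2 summit lay 679 and 39 bp from the strongest WT BRG1 summits, and 31 and 144 bp from the hemogen summits. It thus lay close to the WT summit of library 2 and far from that of library 1. The peak was 471 bp wide, where the median of its list was 280.5 bp.

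This placement was set against all KO group-list peaks that overlap both a hemogen and a WT BRG1 region. With the summits of WT library 1, all 3 KO group-list peaks of the Hemgn and Smarca4 windows were nearer to the strongest hemogen summit than to the strongest WT BRG1 summit of the regions they overlap, against 37.0% of 9799 peaks. With the summits of library 2, 1 of the 3 was, against 37.5%. The libraries therefore differ on it, except at the strongest Hemgn region. There, both put the KO summit nearer to the strongest hemogen summit than to the strongest BRG1 summit. This does not hold for the nearest summits of any peak in WT library 2. Of these, the BRG1 summit lay 12 bp from the KO group-list summit and the hemogen summit 59 bp.

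The third of the strong Hemgn regions, chr4:46406704-46407700, had no KO peak in any list. It had been called in WT with 38 and 31 fragments at its summit, and its strongest hemogen peaks stood at percentiles 97.3 and 97.3 and its H3K27ac peaks at 79.1 and 93.6 of their lists. Of all WT BRG1 regions in its decile 69.8% were called in the KO, so an uncalled region of this strength is common.

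At Smarca4, the gene of BRG1, most regions lay in a short cluster. The WT marks gave 1 stretch of 2.483 kb, chr9:21615242-21617724, with 1 hemogen, 2 BRG1 and 1 H3K27ac region. The rest of the 110 kb window held 1 hemogen region and 1 H3K27ac region, far from the cluster and from each other. Of 23888 tiles of 110 kb, 21.9% held 2 or more hemogen regions, 14.2% held 2 or more H3K27ac regions and 13.0% held 2 or more BRG1 regions, so such numbers are ordinary for a stretch of this length.

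**Figure D5:**
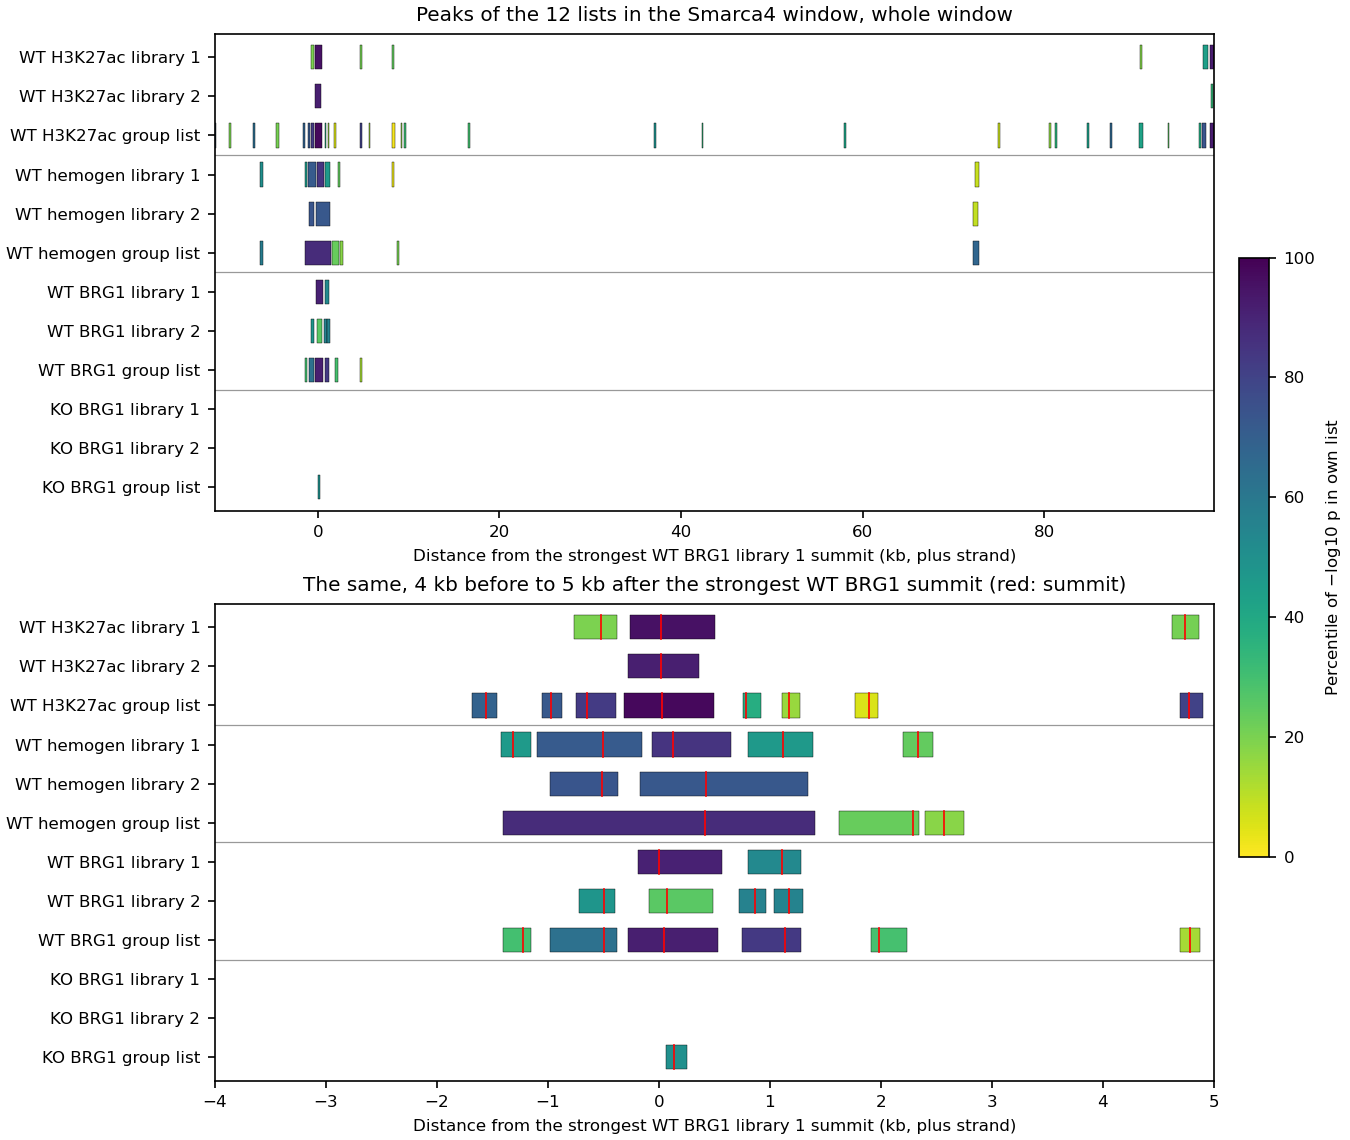
Peaks of the 12 lists in the Smarca4 window (top) and around its cluster (bottom), by distance in kb from the summit of the strongest WT BRG1 library 1 peak; bars are peaks, red ticks in the lower panel are summits, and colour is the percentile of −log10 p within the peak's own list. All WT lists meet near the zero point, and the KO BRG1 peak there is that of the group list.

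Hemogen gave 8 and 3 peaks in its libraries at Smarca4, and 6 in its group list. Its main region, the whole of the cluster, had folds of 5.87 and 5.08, a strength of 79.2 and 25 and 28 fragments at its strongest summits. Within it library 1 called 3 peaks and library 2 called 2, with the strongest summit at 21616464 in library 1 and at 21615824 in library 2. The second hemogen region, chr9:21688476-21689099, was weak, with folds of 3.21 and 2.88 and a strength of 8.83. No BRG1 or H3K27ac peak of any list overlapped it.

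BRG1 gave 2 and 4 peaks in the WT libraries, all within the cluster, and 6 in the group list, of which 3 lay within it. The region chr9:21616150-21616908 differed between libraries. Library 1 gave it a fold of 6.37, a −log10 p of 16.9 and a percentile of 90.9, and library 2 a fold of 3.16, a −log10 p of 6.41 and a percentile of 25.6. The recovered heights, 35 and 29 fragments, were nearer to each other than the folds, while the recovered background was 4.54 fragments in library 1 and 8.23 in library 2. The region chr9:21617061-21617636 was alike in both, with folds of 4.30 and 4.63 and heights of 22 and 24 fragments. Library 2 also called a peak at chr9:21615614-21615941, with a fold of 4.49 and its summit 19 bp from the strongest hemogen summit of that library.

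H3K27ac marked the centre of the cluster. The region chr9:21616063-21616838 had folds of 5.88 and 5.36, a strength of 93.4, and summits at 21616360 and 21616357. The BRG1 summits of the first BRG1 region, 21616336 and 21616414, lay on either side. The other H3K27ac region, chr9:21714569-21714993, lay just inside the far edge of the window, had folds of 6.39 and 4.25 and a strength of 62.8, and met no BRG1 or hemogen region. The H3K27ac group list had 30 peaks in the window where the libraries had 7 and 2, and 28 of the 30 met no region of both libraries.

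Both BRG1 regions of Smarca4 overlapped the hemogen region and 1 of the 2 overlapped an H3K27ac region. Over all WT BRG1 regions the shares were 96.6% and 63.9%. BRG1 was thus called at the gene that encodes it, beside hemogen and acetylated chromatin, as it was at most BRG1 regions of the genome. Median distances from BRG1 to hemogen summits were 69.5 bp over 2 peaks in library 1 and 396.5 bp over 4 peaks in library 2.

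In the KO, no BRG1 peak was called at Smarca4 in either library. The WT libraries had 2 and 4 peaks, a mean of 3.0 ± 1.41 (SD, n = 2), and the KO libraries 0 and 0. The WT peaks were 0.0076% and 0.0189% of lists of 26329 and 21165 kept peaks, where the KO lists kept 3205 and 5592. How often other windows of 110 kb with so few WT peaks hold no KO peak was not computed. The difference of 3.0 peaks gave p = 0.33 by the same exact two-sided permutation, again the smallest that 2 against 2 can give. In lists trimmed to 3205 peaks WT had 1 and 0 peaks and the KO had 0 and 0, a difference of 0.5 with an exact two-sided permutation p of 1.0. The groups then overlapped. With the window extended by 20 kb on each side, WT had 8 and 8 peaks and the KO 0 and 2, a difference of 7.0.

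The KO group list, with more estimated depth (0.741) than either KO library, did hold a peak at Smarca4. It lay at chr9:21616398-21616592, inside the first WT BRG1 region, with a fold of 3.47, a −log10 p of 7.41, a percentile of 50.0 and 36 fragments at its summit. Of the 2 WT regions 1 was therefore called in the KO, by the group list alone, against 55.3% of all WT BRG1 regions, and without the group list neither was. The called region lay in the fifth decile of strength and the uncalled one in the fourth, where 50.3% and 43.8% of all regions were called. On the WT BRG1 group list, 1 of the 6 Smarca4 peaks and 2 of the 17 Hemgn peaks were called in the KO, against 25.6% of its 37655 peaks.

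Between the genes, the strongest BRG1 peak of WT library 1 was of similar rank, at percentile 95.4 at Hemgn and 90.9 at Smarca4 in the same list. In library 2 the strongest stood at 91.6 at Hemgn and at 56.0 at Smarca4. For hemogen, the strongest peaks stood at 98.6 and 97.3 at Hemgn, and at 84.8 and 73.6 at Smarca4. In both libraries of both proteins, then, the top peak at Hemgn ranked above that at Smarca4, a description over 1 locus each. The top peak was, however, taken from more peaks at Hemgn. The median percentile of the BRG1 peaks was 43.4 and 41.5 at Hemgn, and higher at Smarca4, at 71.9 and 51.5. For hemogen the medians were 60.7 and 64.1 at Hemgn, against 46.1 and 72.8 at Smarca4. The H3K27ac maxima were closer, with 98.7 and 96.8 at Hemgn and 95.4 and 91.5 at Smarca4.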

How the data were processed

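Chromatin immunoprecipitates of fetal liver (8 libraries in 4 groups of 2) were analysed as the authors' peak lists. The submitters' processing notes list the peak caller MACS2 2.2.7.1, Picard 2.21.4, SAMtools 1.9 and the aligner Bowtie2 2.3.5 without their roles. Sources used here do not state the genome build. Contig names and peak positions match mm10, and no position was converted. Each deposited peak carries the authors' fold enrichment (a ratio to local background), −log10 p-value and −log10 q-value. The lowest −log10 q of any list was 1.30 to 1.37. The lists are not counts, so no count model was used, and fold and p served only to describe and rank peaks within a list.

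Peaks sharing 1 bp were counted as overlapping. Peaks on the 19 autosomes and X were kept. The strength of a region averages the −log10 p percentiles of its strongest peak in each of the 2 library lists. Summit height and background in fragments were recovered by reading p as an upper Poisson tail and fold as height plus 1 over background plus 1, an assumption about the caller. In each list, 99.6% to 100% of heights were whole multiples of a single scaling factor, to within 0.01. The lowest background, divided by the shortest peak width and the scaling factor, gave the relative depth. Without the division by the scaling factor, it gave the relative calling depth, on the scale at which peaks were called. Relative calling depth was 0.258 and 0.261 in the KO libraries and 0.86 in WT BRG1 library 2. On simulated lists of 400 intervals, overlaps matched a direct comparison with 0 differences. In a separate simulation, 100% of heights with a single solution were recovered for 4 scaling factors. Those heights were generated with the assumed formulae, so this checked the calculation and not the assumption about the caller.

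Groups and replicate numbers came from sample titles. Peaks per library were compared by an exact permutation test. The windows, tests and alternatives were chosen with earlier results of these data known, and the joining distance of 1 kb, the tiles and the summit comparison of KO peaks were chosen after seeing the data. The 3 strongest regions of each WT mark at Hemgn, and both regions of each at Smarca4, are given with position, fold and strength, and the other H3K27ac regions by count and range. No mouse annotation or genome was used, so promoter occupancy, gene lists, cell type markers and sequences were left out. The computations ran in Python 3.11.15 with SciPy 1.17.1, pandas 2.3.3, NumPy 2.4.6 and, for the plots, Matplotlib 3.10.9.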

Additional observations from a re-analysis of the deposited data

How the results depend on the processing

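The percentage of Hemgn WT BRG1 regions with a KO call, 22.2%, ranged from 9.52% to 100% over 10 alternatives. It became 100% (1 region of 1) with BRG1 lists trimmed to equal length. At Smarca4 the share of 50.0% became 0% at a −log10 q of at least 5, 0% where a call in both KO libraries was required, and between 0% and 50.0% when each library was left out, since single KO libraries have no peak there. Trimmed lists left no WT BRG1 region at Smarca4 and gave no value. Overlap with hemogen at Hemgn, 88.9%, became 100% on the group lists and 100% at a −log10 q of at least 5, and 66.7% to 81.2% with each library left out. Overlap with H3K27ac at Smarca4, 50.0%, became 0% (0 of 1) at that q, 83.3% on the group lists and 25.0% without WT BRG1 library 1. The cause of these moves was not tested, apart from the smaller number of regions. With the replicate number as a block (replicate block), the differences in peaks per library remained 17.0 and 3.0, each with an exact sign-flip p of 0.5, the smallest that 2 pairs allow; the labels do not say that the numbers mark a shared animal or day. All 8 alternatives of each difference kept its sign, with ranges of 0.5 to 20.5 peaks at Hemgn and 0.5 to 7.0 at Smarca4. KO depth limits what a missing peak shows. Promoter occupancy was not run.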
